A study of Mus musculus with 8 samples.

Results

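The microRNAs miR-221 and miR-222 were measured in mouse liver during exposure to carbon tetrachloride (CCl4). They were taken by the names of their assays, 2 of the 381 assays listed for a quantitative PCR card of rodent microRNAs, over all 8 cards of the series. Both were determined on all 8 cards, so neither was lost to a filter. The mice were female C57B6 animals, 4 weeks old when dosing started. There were 4 groups of 2 cards: untreated liver, and liver after 1, 4 and 8 weeks of CCl4 given by intraperitoneal injection in corn oil. The sample labels give a dose of 1 mg/kg and the methods of the study give the same figure in ml/kg, so the unit of the dose is uncertain. The labels do not say whether untreated mice received oil, nor whether each card held RNA of a single mouse. The design text of the series counts 4, 3 and 2 mice at 1, 4 and 8 weeks, against 2 cards for each time here, so how cards map to mice is not known. The p-values therefore measure the spread between cards, which may be technical. Age at sampling rose with the time on CCl4, and age and treatment time cannot be told apart.

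As background, mature microRNAs are short RNAs that guide Argonaute proteins to messenger RNAs, chiefly through the seed near their start, and lower the output of those messages. miR-221 and miR-222 are encoded side by side and are known to be transcribed together. Both repress the cell cycle inhibitor p27 (Cdkn1b), and both have been linked to hepatocyte proliferation and to the activation of hepatic stellate cells, which become the matrix-producing myofibroblasts of the fibrotic liver. CCl4 is turned into a reactive radical by cytochrome P450 enzymes of hepatocytes, and repeated dosing is a standard model of liver fibrosis.

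The sequences are shown because they give what the pair shares, the seed, and what sets the members apart. The mature -3p forms from RefSeq (GRCm38.p6) are given with the seed, bases 2 to 8, in capitals. The assay names carry no arm and were read as the -3p form.

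miR-221-3p: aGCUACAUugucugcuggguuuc

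miR-222-3p: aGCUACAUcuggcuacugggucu

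Each has 23 bases. Compared position by position without gaps, the first 8 bases were identical and 3 of the 15 after them, so 11 of 23 positions matched. The difference lies in the part beyond the seed. Such a count misses shifted stretches: both hold the run cugggu there, starting a base later in miR-222. It therefore understates how alike the 2 are beyond the seed. Of 1738 mature mouse entries of RefSeq, 3 carry this seed, and the other one, miR-1928, is not on the cards. Both genes lie on the minus strand of the X chromosome, as hairpins with the -3p form in capitals below. Mir221 is at chrX:19146294-19146388 and Mir222 at chrX:19146893-19146971, with 504 bases between them. These 2 genes were the only RefSeq genes overlapping the span.

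Mir221 hairpin: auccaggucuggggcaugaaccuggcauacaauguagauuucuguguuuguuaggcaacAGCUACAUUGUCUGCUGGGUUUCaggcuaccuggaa

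Mir222 hairpin: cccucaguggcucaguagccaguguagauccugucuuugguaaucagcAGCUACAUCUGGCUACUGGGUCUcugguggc

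The readout was the threshold cycle (Ct), the PCR cycle at which an assay crosses its threshold, and a lower Ct means more template. Between 193 and 235 assays were determined per card. Each Ct was subtracted from the average of its card, taken over the 149 assays that stayed under Ct 35 throughout. The resulting centred value rises with abundance and is on a log2 scale if PCR doubles the product in each cycle. The card means themselves ranged from 27.48 to 29.77 cycles, a spread that the centring removes. Changes were tested with limma over 166 assays, and p-values were adjusted by the method of Benjamini and Hochberg within each comparison, with 0.05 as the threshold. All comparisons with untreated liver share the same 2 untreated cards. In whole liver RNA, a change in the number of cells of a type and a change in RNA per cell cannot be told apart.

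miR-222 was highest after 1 week of CCl4. Its centred values were 2.40 and 2.79 in untreated liver and 3.82 and 3.77 after 1 week. They were 2.79 and 2.83 after 4 weeks and 2.31 and 2.18 after 8 weeks. Both 1-week cards lay above all 6 other cards, and both 8-week cards lay below all 6 others. Its raw Ct ran in the same order as the groups only in part, with 25.95 and 25.20 in untreated liver, 24.95 and 24.83 after 1 week, 25.46 and 26.94 after 4 weeks, and 25.17 and 26.70 after 8 weeks. The 1-week cards had the 2 lowest Ct before any centring, but the untreated, 4-week and 8-week cards overlapped.

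**Figure D1:**
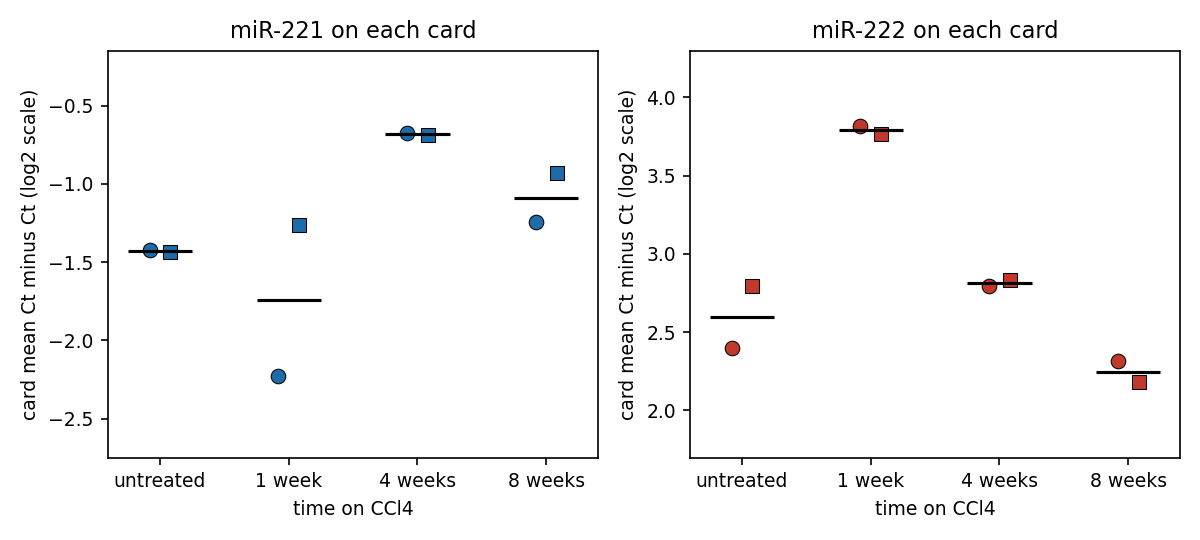
Centred value (card mean Ct minus Ct of the assay, log2 scale) of miR-221 and of miR-222 against time on CCl4, with a circle for replicate 1, a square for replicate 2 and a bar at the group mean of 2 cards. The 1-week cards of miR-222 at 3.82 and 3.77 stand above its other cards, while the 4-week cards of miR-221 at -0.68 and -0.69 stand above its other cards.

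Against untreated liver miR-222 rose by 1.20 on the log2 scale at 1 week (SE 0.28, 95% interval 0.55 to 1.84, adjusted p = 0.0158, limma). This is 2.29-fold. At that time 32.5% of tested assays passed the threshold, and miR-222 was thirty-fourth from the top by fold change among 166. That share is 54 assays, and 15 passed without untreated replicate 1, 28 without 1-week replicate 1 and 23 without 1-week replicate 2. The call was not stable. With the geometric mean of all determined Ct as the reference of each card, the kind of normalization the study applied, the difference was 0.85 (adjusted p = 0.192, limma). Centring on the arithmetic mean of the determined Ct gave 0.84, the small RNA controls gave 0.96 and no normalization gave 0.69, and none of these passed. Without untreated replicate 1 it was 1.00 (adjusted p = 0.111, limma), and it also failed without either 1-week card, at 1.17 without replicate 1 and 1.22 without replicate 2.

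At 4 weeks miR-222 differed from untreated liver by 0.22 (95% interval -0.43 to 0.87, adjusted p = 0.579, limma), where 30.1% of assays passed. That share is 50 assays, and 26 and 22 passed without untreated replicate 1 and replicate 2, and 32 without 4-week replicate 2. At 8 weeks it differed by -0.35 (95% interval -0.99 to 0.30, adjusted p = 0.402, limma), where 3.01% passed. That share is 5 assays, and limma called 1 without either untreated card and 0 without either 8-week card. Neither difference passed the test, and both signs depended on the reference. The 8-week difference was 0.11 with the small RNA controls and 0.013 after quantile normalization, and the 4-week difference was -0.057 with the arithmetic mean of the determined Ct and -0.63 with no normalization. All these settings except quantile normalization shift every assay of a card alike, so the distance of miR-222 from the median assay stays the same. The median of all tested assays was 0.42 at 8 weeks with the controls. At 4 weeks it was -0.25 with the arithmetic mean and -0.82 with no normalization. After quantile normalization the 4-week difference was 0.99 and passed (adjusted p = 0.0174, limma). It was 0.011 with the geometric mean of all determined Ct, and 0.022 and 0.42 without untreated replicate 1 and replicate 2. The 8-week difference was -0.55 and -0.15 without these cards. The intervals still contain a 1.82-fold higher level at 4 weeks and a level of 0.503 of untreated at 8 weeks.

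miR-222 fell after its 1-week level. From 1 to 4 weeks the difference was -0.98 (SE 0.28, 95% interval -1.62 to -0.33, adjusted p = 0.0245, limma), to 0.508 of the 1-week level, in a comparison in which 47.0% of assays passed. That share is 78 assays, and 41 and 37 passed without 1-week replicate 1 and replicate 2, and 30 without 4-week replicate 2. From 1 to 8 weeks it was -1.54 (95% interval -2.19 to -0.90, adjusted p = 0.0121, limma), to 0.343 of the 1-week level, where 24.1% passed. That share is 40 assays, and 9 passed without 1-week replicate 1 and 4 without 1-week replicate 2 or without 8-week replicate 2. This was the ninth smallest p among 166 assays. From 4 to 8 weeks the difference was -0.57 (adjusted p = 0.267, limma), where 1.2% passed. In the order 1 week, 4 weeks, untreated, 8 weeks, only the first pair of neighbours differed by the test.

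The sizes of these falls moved little when single cards were left out, from -1.001 to -0.953 between 4 and 1 weeks and from -1.61 to -1.48 between 8 and 1 weeks, but with fewer cards the test was not always passed. The difference between 4 and 1 weeks did not pass in 4 of 8 runs that each left out a card. These were the runs without either 1-week card (-0.95 without replicate 1, -1.001 without replicate 2) and without either 4-week card (-0.957 and -0.997). The difference between 8 and 1 weeks did not pass in 3 of 8, at -1.52 and -1.57 without the 1-week cards and -1.48 without 8-week replicate 2. With the small RNA controls as reference the difference between 4 and 1 weeks was -0.10, and after quantile normalization it was 0. The controls shift all assays of a card alike. The median of all tested assays between 4 and 1 weeks was 0.85 with them, against -0.03 with the centring used here. With the geometric mean of all determined Ct the miR-222 difference between 4 and 1 weeks was -0.84 (adjusted p = 0.202, limma). The difference between 8 and 1 weeks did not pass with that geometric mean (-1.23, adjusted p = 0.0907, limma), the arithmetic mean (-1.26, adjusted p = 0.101, limma) or the controls (-0.85, adjusted p = 0.0788, limma).

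miR-221 followed another course. Its centred values were -1.42 and -1.44 in untreated liver, -2.22 and -1.26 after 1 week, -0.68 and -0.69 after 4 weeks and -1.25 and -0.93 after 8 weeks. Both 4-week cards lay above all 6 others, and 1-week replicate 1 lay below all others. The 1-week cards were far apart (SD 0.68, n = 2) and enclosed the untreated level, while the untreated cards (SD 0.010, n = 2) and the 4-week cards (SD 0.007, n = 2) were close. The raw Ct were 29.77 and 29.43 in untreated liver, 30.99 and 29.86 after 1 week, 28.93 and 30.46 after 4 weeks, and 28.73 and 29.81 after 8 weeks. Before centring the 4-week cards did not stand out.

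None of the differences of miR-221 from untreated liver passed the test. They were -0.31 at 1 week (95% interval -1.16 to 0.54, adjusted p = 0.502, limma), 0.75 at 4 weeks (95% interval -0.10 to 1.60, adjusted p = 0.152, limma) and 0.34 at 8 weeks (95% interval -0.51 to 1.19, adjusted p = 0.526, limma). The sign at 1 week rested on a single card, since the difference was 0.17 without 1-week replicate 1 and -0.79 without 1-week replicate 2. With the geometric mean of all determined Ct it was -0.66, and with no normalization it was -0.825, neither past the threshold. The median of all tested assays at 1 week was -0.43 and -0.60 in those settings. The 4-week estimate is 1.68-fold, and its interval runs from 0.932-fold to 3.03-fold. With the small RNA controls as reference the 4-week difference was 1.39 and passed (adjusted p = 0.0415, limma), and with no normalization it was -0.10 and did not. Both settings shift all assays of a card alike, and the median of all tested assays at 4 weeks was 0.67 and -0.82 with them.

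Between 1 and 4 weeks miR-221 rose by 1.06 (SE 0.36, 95% interval 0.21 to 1.91, adjusted p = 0.0451, limma), which is 2.09-fold. This call was the least stable of those on the pair. It did not pass in 7 of 8 runs that left out a card, with 0.58 (adjusted p = 0.267, limma) without 1-week replicate 1, 1.06 without each untreated or each 8-week card, 1.06 without 4-week replicate 1 and 1.07 without 4-week replicate 2. It passed only without 1-week replicate 2, at 1.54. With the geometric mean of all determined Ct as reference it was 1.20 (adjusted p = 0.0870, limma). The differences of 0.66 between 8 and 1 weeks (adjusted p = 0.210, limma) and of -0.41 between 8 and 4 weeks (adjusted p = 0.556, limma) did not pass. The first of these was 0.17 without 1-week replicate 1 and 1.14 without 1-week replicate 2, and with the small RNA controls it was 1.36 and passed (adjusted p = 0.0442, limma). The median of all tested assays between 8 and 1 weeks was 0.80 with the controls. In the order 4 weeks, 8 weeks, untreated, 1 week, no neighbouring levels differed by the test.

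**Figure D2:**
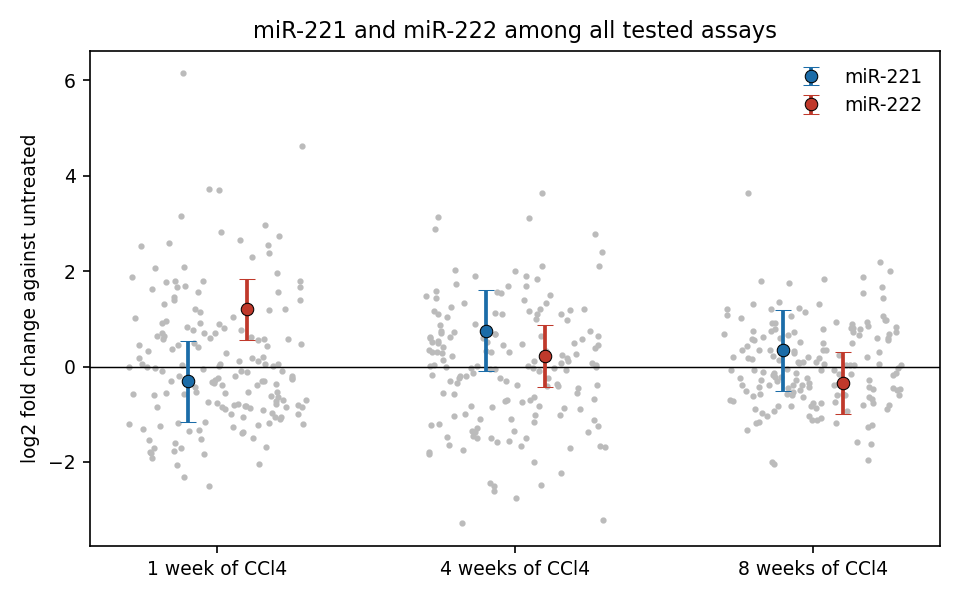
Log2 fold change against untreated liver after 1, 4 and 8 weeks of CCl4 for the 166 tested assays as grey points, with miR-221 and miR-222 marked and their 95% intervals from limma drawn as bars. miR-222 lies at 1.20 at 1 week and miR-221 at 0.75 at 4 weeks, both within the cloud of all assays.

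Averaged over the 3 exposure times neither miRNA passed the test against untreated liver. The mean difference was 0.36 for miR-222 (95% interval -0.17 to 0.88, adjusted p = 0.305, limma) and 0.26 for miR-221 (95% interval -0.44 to 0.96, adjusted p = 0.583, limma), in a comparison in which 28.9% of assays passed. After quantile normalization the value of miR-222 was 0.66 and passed (adjusted p = 0.0346, limma). With the geometric mean of all determined Ct the values were 0.16 for miR-222 and 0.065 for miR-221. Leaving out single cards gave 0.16 to 0.55 for miR-222 and 0.10 to 0.42 for miR-221. The 28.9% stands for 48 assays, and 14 and 7 passed without untreated replicate 1 and replicate 2. The two-sided exact permutation test of 6 treated against 2 untreated cards gave p = 0.607 for miR-222 and p = 0.536 for miR-221. With 28 arrangements its smallest possible p is 0.0357. In the F test over the times 54.2% of assays passed, or 90, against 35 to 88 when single cards were left out. The adjusted p was 0.0154 for miR-222 and 0.124 for miR-221 (limma). The value of miR-222 rose to 0.189 with the geometric mean of all determined Ct, and to 0.0844 and 0.0808 without 1-week replicate 1 and replicate 2.

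The 2 miRNAs can be set against each other within a card, where no centring is needed. The Ct of miR-221 minus the Ct of miR-222 is the log2 ratio of miR-222 to miR-221, up to a constant set by the 2 assays, so its changes can be read but its level cannot. It was 3.82 and 4.23 in untreated liver, 6.04 and 5.03 after 1 week, 3.47 and 3.52 after 4 weeks, and 3.56 and 3.11 after 8 weeks. Both 1-week cards lay above all other cards, and all 4 later cards lay below both untreated cards. The mean was 4.03 ± 0.29 (SD, n = 2) untreated, 5.54 ± 0.71 (SD, n = 2) at 1 week, 3.50 ± 0.035 (SD, n = 2) at 4 weeks and 3.34 ± 0.32 (SD, n = 2) at 8 weeks. Relative to untreated liver the ratio was thus 2.85-fold at 1 week, 0.693-fold at 4 weeks and 0.620-fold at 8 weeks, and from 1 to 4 weeks it changed by -2.04 on the log2 scale.

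**Figure D3:**
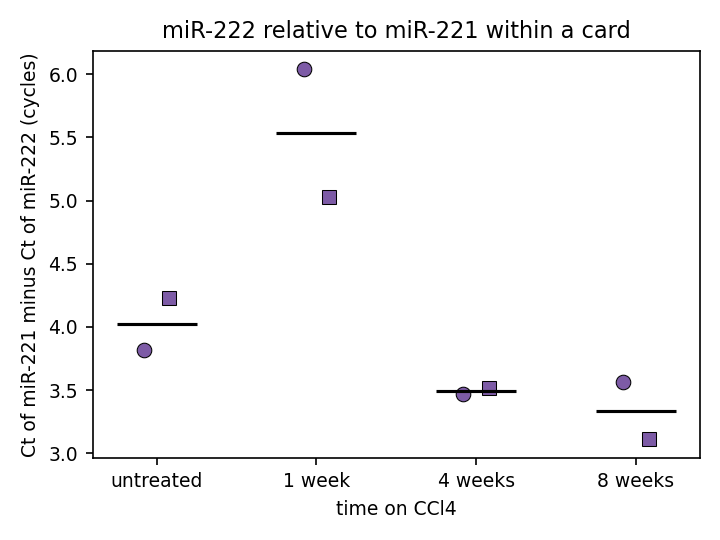
Ct of miR-221 minus Ct of miR-222 within a card, in cycles, against time on CCl4, with a circle for replicate 1, a square for replicate 2 and a bar at the group mean of 2 cards. The 1-week cards at 6.04 and 5.03 lie above the untreated cards at 3.82 and 4.23, and the 4-week and 8-week cards lie between 3.11 and 3.56, below both.

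An exact permutation test of the F statistic of this ratio over the 4 groups gave p = 0.0286 (F = 11.5, 105 arrangements, smallest possible p 0.00952). The test was added after the differing courses of the pair had been seen, so it is not independent of that pattern. It did not reach 0.05 in 5 of 8 runs that left out a card: exact p = 0.0571 without untreated replicate 1, 0.0667 without untreated replicate 2, and 0.0762 without either 4-week card or 8-week replicate 2. Averaged over times the ratio differed from untreated liver by 0.10 (exact permutation p = 0.964, 6 against 2 cards), the 1-week and later cards lying on opposite sides.

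How the card is centred moves both miRNAs together and leaves their ratio unchanged, except under quantile normalization. The differences of miR-222 from 1 to 4 weeks ranged from -1.31 with no normalization to 0 after quantile normalization, and those of miR-221 were all above 0. U6, a spliceosomal RNA often used as a reference, itself differed by 2.38 at 1 week (adjusted p = 0.00800, limma) and by -1.50 at 4 weeks (adjusted p = 0.0417, limma) under the centring used here. The nucleolar RNA snoRNA202 differed by -1.39 at 1 week (adjusted p = 0.0139, limma). snoRNA135 differed by -0.27 at 1 week (adjusted p = 0.493, limma) and by -0.03 at 4 weeks.

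**Figure D4:**
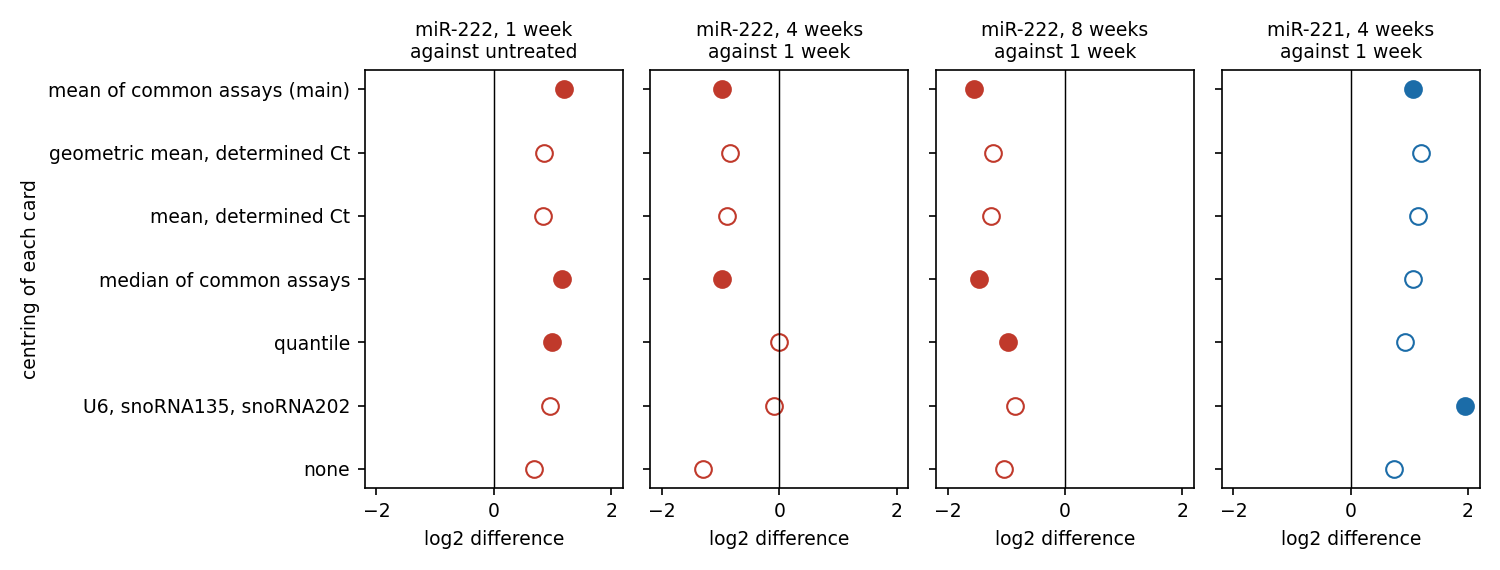
Log2 differences of 3 comparisons of miR-222 and 1 of miR-221 (horizontal axis) under 7 ways of centring each card (vertical axis), with filled points where the adjusted p from limma is below 0.05 and open points where it is not. The differences of miR-222 between 4 and 1 weeks run from -1.31 to 0, and those of miR-221 stay above 0.

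In abundance as the assays see it, miR-222 had a mean Ct of 25.65 and was twenty-sixth from the lowest among 166 tested assays, and miR-221 had a mean Ct of 29.75 and was ninety-first. Assays can differ in efficiency, so these ranks do not measure the molar ratio. The pooled replicate SD of centred values was 0.15 for miR-222, the ninth smallest of 166, and 0.36 for miR-221, against a median of 0.39 over all tested assays.

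Over the 8 cards the centred values of the pair had a Pearson r of -0.51, given as a description since cards of a group share their treatment and all values of a card share its centring. It was 0.015 with the small RNA controls, 0.20 with no normalization and 0.018 after quantile normalization, so its sign depends on the centring. Likeness to other assays was computed only under the centring used here, and whether it holds under another was not checked. Of 165 other assays, the pattern of miR-221 was most like those of miR-652 (r = 0.92), miR-667 (r = 0.88) and miR-339-5p (r = 0.85). That of miR-222 was most like those of miR-484 (r = 0.96), miR-150 (r = 0.94), which is abundant in mature lymphocytes, and miR-146b (r = 0.91), which is induced by inflammatory signalling. The assay nearest to each is shown by its RefSeq mature sequence, seed in capitals, since neither shares the seed printed above.

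miR-652-3p, nearest to miR-221: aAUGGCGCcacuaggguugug

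miR-484, nearest to miR-222: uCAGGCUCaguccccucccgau

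These 6 assays were picked for their likeness over the same 8 cards, so their course follows from the choice and their values are given as a description, with no test. The 1-week differences from untreated liver were 3.73 for miR-146b, 1.97 for miR-150 and 1.79 for miR-484, each larger than the 1.20 of miR-222. Their differences between 4 and 1 weeks were -2.54, -1.84 and -1.67 on the log2 scale. For the assays like miR-221, the differences between 4 and 1 weeks were 2.10 for miR-339-5p, 1.92 for miR-667 and 1.79 for miR-652, each larger than the 1.06 of miR-221. Their differences from untreated liver at 4 weeks were 1.89, 1.17 and 1.10.

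**Figure D5:**
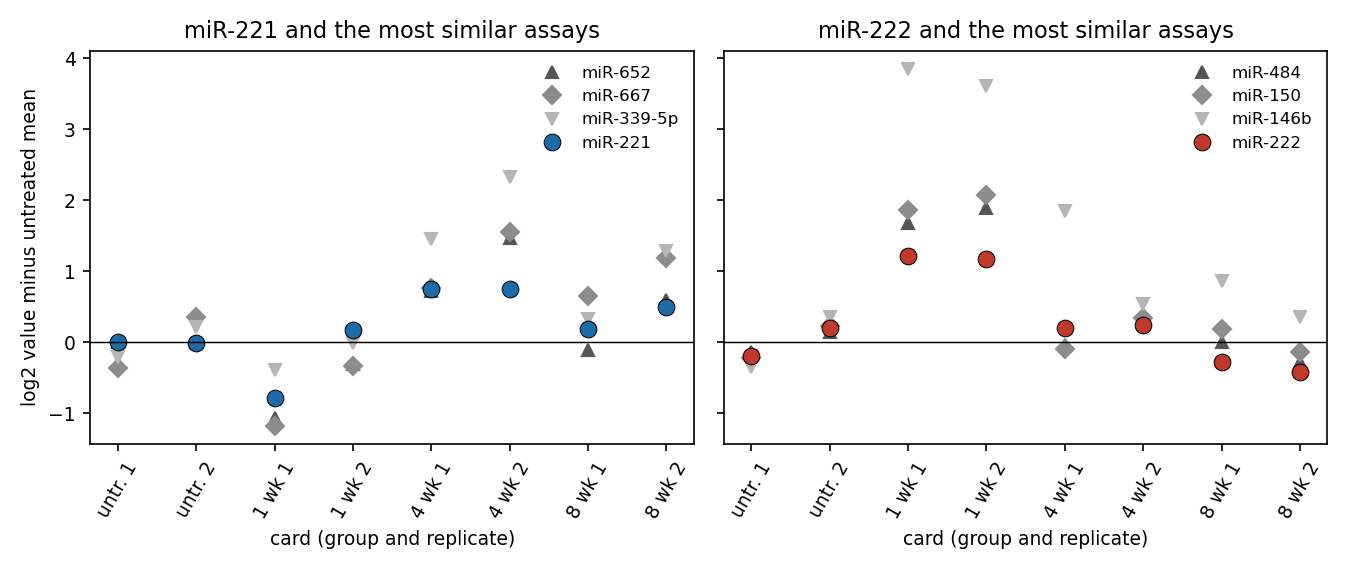
Centred value of each card minus the untreated mean (log2 scale, vertical axis) over the 8 cards (horizontal axis) for miR-221 with its 3 most similar assays and for miR-222 with its 3 most similar assays. miR-146b reaches the highest 1-week values, with a mean of 3.73, and the assays like miR-221 are highest at 4 weeks.

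Lists of miRNAs known from stellate cells and proliferation were counted beside the pair, since both processes have been linked to it. Over all 166 tested assays, 30 rose and 24 fell at 1 week, 22 rose and 28 fell at 4 weeks, and 4 rose and 1 fell at 8 weeks, and the counts below are to be read against these. Of the list known to be higher in activated stellate cells, 9 of 12 were tested. At 1 week 1 rose (miR-34a, a p53 target, by 1.56) and 1 fell (miR-27b, at -1.54), and at 4 weeks 3 rose and 1 fell, with miR-34a at 1.44 and miR-27b at -1.09. The 2 of 9 called at 1 week and 4 of 9 at 4 weeks stand beside 32.5% and 30.1% of all assays. The median of the list was -0.03 at 1 week against -0.09 over all tested assays, and 0.62 at 4 weeks against 0.03. At 8 weeks 1 rose and none fell, again miR-34a, at 1.66 (adjusted p = 0.0231, limma). When undetermined wells were set to Ct 40, limma called 0 assays at 8 weeks (33 at an unadjusted p below 0.05). When only the groups compared were fitted it also called 0 (32 at an unadjusted p below 0.05). The 8-week calls are lost without either 8-week card, where limma called 0 assays (45 and 26 at an unadjusted p below 0.05 without replicate 1 and replicate 2).

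Of 11 miRNAs known to be lower in activated stellate cells, 3 rose and 2 fell at 1 week and 1 rose and 5 fell at 4 weeks, with none past the threshold at 8 weeks. Of all tested assays 32.5% passed at 1 week, 30.1% at 4 weeks and 3.01% at 8 weeks. The medians were 0.64 at 1 week and -0.72 at 4 weeks, beside -0.09 and 0.03 over all assays. miR-150 is in this list and was among the 3 that rose at 1 week. miR-194, also a hepatocyte miRNA, fell by 2.49 and miR-29c, which targets collagen messages, fell by 1.99 at 4 weeks. Of 9 members of the miR-17-92 and miR-106b-25 clusters, which promote proliferation, 1 fell at 1 week (miR-20a) and 1 rose at 4 weeks (miR-18a, by 1.51, adjusted p = 0.0457, limma). Their median was -0.10 at 1 week and 0.46 at 4 weeks, beside the same -0.09 and 0.03 over all assays. At 8 weeks none of the 9 passed, and their median was 0.04. miR-106b differed by 0.58 at both 1 and 4 weeks and did not pass.

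Markers of liver cell types were counted in the same way, beside the same counts over all 166 tested assays. Of these, 30 rose and 24 fell at 1 week, 22 rose and 28 fell at 4 weeks, and 4 rose and 1 fell at 8 weeks. Of 5 leukocyte miRNAs, 4 rose at 1 week and 4 at 4 weeks, the myeloid miR-223 by 2.06 and 2.77 and miR-142-5p by 1.63 and 1.60. The median of the list was 1.63 at 1 week and 1.60 at 4 weeks, beside -0.09 and 0.03 over all assays. At 8 weeks none of the list passed, and its median was 0.82 beside -0.04 over all assays. The mean centred value of the list ranged from -0.62 to -0.44 over the untreated cards, from 0.78 to 0.91 over the 1-week cards, from 0.90 to 1.06 over the 4-week cards and from 0.05 to 0.30 over the 8-week cards. The list is not uniform: miR-150 was at 0.13 at 4 weeks and miR-142-3p at -0.20 at 1 week.

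Of 5 hepatocyte miRNAs, 1 fell at 1 week (miR-802, at -1.72), 4 fell at 4 weeks (miR-802 at -3.28) and 1 fell at 8 weeks (miR-802 at -2.04, a call that is also lost without either 8-week card). Their medians were -0.79, -2.49 and -1.18, beside -0.09, 0.03 and -0.04 over all assays. Their card means ranged from 3.84 to 3.86 untreated, then from 2.81 to 2.86, from 1.69 to 1.90 and from 2.79 to 2.90 after 1, 4 and 8 weeks, so hepatocyte miRNAs were present on all cards. Of 5 mesenchymal miRNAs 4 were tested. None passed at 1 week, and at 4 weeks 2 rose, miR-214 by 1.69 and miR-199a-3p by 1.10, with medians of 0.15 at 1 week and 0.71 at 4 weeks. All 4 are also in the list higher in activated stellate cells, and these 2 are among the 3 counted there as rising at 4 weeks. Their card means were 0.89 to 1.11 untreated, then 1.12 to 1.19, 1.60 to 1.78 and 1.20 to 1.39 after 1, 4 and 8 weeks. None of the 4 passed at 8 weeks, at a median of 0.27. The 2 endothelial assays both fell at 4 weeks, miR-126-3p by 1.83 and miR-126-5p by 1.65. Neither was past the threshold at 1 week or at 8 weeks. Their medians were 0.38 at 1 week, -1.74 at 4 weeks and -0.86 at 8 weeks. miR-126-3p, miR-150, miR-194 and miR-19b are likewise each in 2 of the lists counted here. The part of any of these cell types in the values of miR-221 and miR-222 was not tested.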

How the data were processed

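Total liver RNA was extracted with the mirVana kit, reverse transcribed without pre-amplification and run on TaqMan cards, 1 card per sample. The authors deposited raw Ct without normalization. The software that set the thresholds is not given in the sources used here. A table of the authors' group ratios to untreated liver was not used. All 8 value columns were mapped to samples, leaving 0 unmapped. Undetermined wells were left missing.

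Ct were centred on the card mean over the 149 assays below 35 on all cards. The 166 assays determined on all cards with a mean Ct below 35 were fitted with limma 3.58.1 (R 4.3.3; lmFit and eBayes) over all 8 cards, which share an estimate of the spread (prior degrees of freedom 3.467), because 2 cards per group cannot reach an exact p below 0.333. The fit was tested on simulated data. Exact permutation tests were run in Python 3.11.15.

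The members, gene lists and tests were chosen with earlier results of these data known. Beside the members, the text names the 3 assays most correlated with each, 3 control RNAs and, from each list, the 2 members with the smallest p over all CCl4 times. Members of a list outside this rule (miR-20a, miR-142-3p) were named after their values were seen. A limma fit of the Ct difference between miR-221 and every other assay was also tried after the data were seen. It was dropped because all its rows share the error of miR-221, so that its variances are not estimated from independent rows, and the exact F test of the ratio replaced it. Alternatives covered 6 other centrings, 2 other Ct limits, undetermined wells at Ct 40, a variance trend, only the groups compared, a replicate block and leaving out each card. When a card was left out, the lone card of its group was assumed to vary like the other groups. Replicate numbers as labelled did not pair the cards consistently: the correlation across assays of the difference between replicates 1 and 2 ranged from -0.50 to 0.43 over pairs of groups. It was 0.43 between 4 and 8 weeks, and -0.39 and -0.50 between untreated liver and those times. A block with the untreated numbers crossed was therefore also counted over all assays, but no values of the pair are given under it.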

Additional observations from a re-analysis of the deposited data

Results flagged for a closer look

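In limma's test of the difference itself, 3 differences between exposure times passed for the pair, in comparisons in which 47.0% (4 against 1 week) and 24.1% (8 against 1 week) of all assays passed. The effect of CCl4 on miR-221 differed between 4 and 1 weeks by 1.06 on the log2 scale, a call lost in 7 of 8 runs that left out a card, and its F test over the times did not pass (adjusted p = 0.124, limma). That on miR-222 differed between 4 and 1 weeks by -0.98 and between 8 and 1 weeks by -1.54, calls lost in 4 and 3 of 8 such runs. The comparisons share their 1-week cards. Groups of 2 cards are too small for a test of single outlying cards.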

How the results depend on the processing

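With 2 cards per group, precision is set by their number, and each of the changes called for the pair was lost under some setting. All values are log2 differences unless named otherwise, and the cause of the changes was not tested.

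The miR-222 difference at 1 week passed under the card median, quantile normalization, both other Ct limits, the variance trend, the groups compared alone and the replicate block (1.20, adjusted p = 0.0302, limma). It did not pass with the card mean (0.84) or geometric mean (0.85) of all determined assays, the small RNA controls (0.96), no normalization (0.69) or undetermined wells at Ct 40 (1.20). Under the same 5 settings, in that order, the miR-222 difference between 8 and 1 weeks was -1.26, -1.23, -0.85, -1.05 and -1.54, that between 4 and 1 weeks was -0.89, -0.84, -0.10, -1.31 and -0.98 (0 after quantile normalization), and its F test gave adjusted p = 0.196, 0.189, 0.0572, 0.722 and 0.0821 by limma, none past the threshold. The miR-221 difference between 4 and 1 weeks did not pass with the card mean (1.15), geometric mean (1.20), card median (1.06), no normalization (0.73), quantile normalization (0.92), Ct 40 (1.06) or the groups compared alone (1.06). The replicate block changed no call on the pair, but took the count between 8 and 4 weeks from 2 to 0 (25 at an unadjusted p below 0.05, limma). With untreated numbers crossed, added after seeing the data, counts were 74, 65 and 17 at 1, 4 and 8 weeks and 64 between 8 and 1 weeks.

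Calls gained were miR-221 with the small RNA controls at 4 weeks (1.39), between 8 and 1 weeks (1.36) and in the F test (adjusted p = 0.0208, limma), and miR-222 after quantile normalization at 4 weeks (0.99), over all CCl4 (0.66) and between 8 and 4 weeks (-0.98). With the controls the median of all tested assays was 0.67 at 4 weeks and 0.80 between 8 and 1 weeks. Signs that turned without a call were, with no normalization, miR-221 at 4 weeks (-0.10), over all CCl4 (-0.20) and between 8 and 4 weeks (0.43), and miR-222 at 4 weeks (-0.63), over all CCl4 (-0.10) and between 8 and 4 weeks (0.27). miR-222 at 4 weeks was -0.057 with the card mean, and at 8 weeks 0.11 with the controls and 0.013 after quantile normalization. Over all CCl4, miR-652 was -0.023 with the card mean and -0.24 with no normalization, miR-667 -0.015 with no normalization, U6 0.21 and snoRNA135 0.17 with the controls, and after quantile normalization snoRNA135 was 0.25 and snoRNA202 0.042. The r of the pair was 0.015 with the controls, 0.20 with no normalization and 0.018 after quantile normalization.

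Leaving out each card gave ranges of -0.79 to 0.17 for miR-221 at 1 week and 0.58 to 1.54 between 4 and 1 weeks. For miR-222 they were 1.00 to 1.40 at 1 week, -1.001 to -0.953 between 4 and 1 weeks, -1.61 to -1.48 between 8 and 1 weeks, and adjusted p = 0.0251 to 0.0844 in the F test (limma). Over all CCl4 they were -0.49 to 0.33 for U6, -0.29 to 0.055 for snoRNA135 and -0.29 to 0.30 for the ratio, whose F test gave exact p = 0.0286 to 0.0762.

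The number of assays called was lower with no normalization (5 at 1 week, 10 at 4 weeks, 2 over all CCl4, 29 between 4 and 1 weeks, 8 between 8 and 1 weeks, 23 in the F test) and with Ct 40 (24, 3, 6, 32, 8 and 14, of 279 assays tested), against 54, 50, 48, 78, 40 and 90 of 166. Leaving out each card gave from 15 (without untreated replicate 1) to 59 at 1 week, from 22 (without untreated replicate 2) to 51 at 4 weeks, from 7 (without untreated replicate 2) to 46 over all CCl4, from 30 (without 4-week replicate 2) to 75 between 4 and 1 weeks, from 4 (without 1-week replicate 2 or 8-week replicate 2) to 49 between 8 and 1 weeks, and from 35 (without 1-week replicate 2) to 88 in the F test. Over the alternatives that kept all 8 cards, the number called at 8 weeks ranged from 0 to 17 against 5. Between 8 and 4 weeks it ranged from 0 to 11 against 2. The 17 and 11 came from the block with untreated numbers crossed. Where limma called 0, between 17 and 45 assays had an unadjusted p below 0.05. The all-determined card mean and geometric mean gave 24 and 25 over all CCl4, and quantile normalization gave 20 between 8 and 1 weeks and 55 in the F test. The median of all tested assays at 1 week was -0.09, -0.43 with the geometric mean, -0.33 with the controls and -0.60 with no normalization. These 3 settings shift all assays of a card alike, so the distance of miR-222 from the median is the same in each by construction.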
